A study of Mus musculus with 2 samples.

Results

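The 10 myosin heavy chain genes Myh1, Myh2, Myh3, Myh4, Myh6, Myh7, Myh8, Myh9, Myh10 and Myh11 were followed in total RNA of embryonic mouse limb. They were chosen by symbol, with no measured value in the rule, though earlier results of these data were known. Each symbol was tied to its gene identifier by GENCODE M21. All 10 had a row among the 43346 mouse gene rows. The study sequenced 1 group, limbs of healthy B6NCrl embryos at 15.5 days with both sexes pooled, and compared no conditions. Replicate 1 was a pool of 78 embryos and replicate 2 a separate pool of 62. Which limbs were dissected, fore or hind, is not stated in the labels. RNA over 200 nt was kept and 10 ng went into each library. Levels are TPM, which is abundance divided by transcript length and scaled to a fixed total, so genes can be compared with each other. Expected counts, the reads assigned to a gene, came to 35104685 for replicate 1 and 41757268 for replicate 2. A gene at 0 could still have had 3 counts, or 0.0855 CPM (scaled to depth) for replicate 1 and 0.0718 for replicate 2, a limit that covers counting error only. With 2 libraries of 1 group there was no test, and each difference below describes these pools alone.

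Class II myosin heavy chains are molecular motors. The head of the protein binds actin and hydrolyses ATP, and the long tail coils with that of a partner chain and packs into filaments. Sarcomeric chains build the thick filaments of striated muscle, the smooth muscle chain drives contraction of vessel and gut walls, and the nonmuscle chains pull on actin at the cortex of almost every cell. Mouse limb muscle is known to use embryonic, neonatal and slow chains before birth and to replace most of them with adult fast chains afterwards.

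Transcripts of the sarcomeric genes used before birth and of the nonmuscle genes made up nearly the whole family. Myh3, Myh8, Myh10, Myh7 and Myh9 each exceeded 15 TPM in both libraries, and the other 5 genes stayed under 2.5 TPM in both. All 10 genes together reached 564.7 TPM in replicate 1 and 292.6 in replicate 2 (428.6 ± 192 TPM, SD, n = 2). Myh3 led in both libraries and Myh4 was lowest in both. The order between them was not fixed: replicate 1 ran Myh3, Myh8, Myh10, Myh7, Myh9, Myh11, Myh6, Myh1, Myh2, Myh4, and replicate 2 ran Myh3, Myh10, Myh8, Myh9, Myh7, Myh11, Myh1, Myh2, Myh6, Myh4. In the order of the means, the library values overlapped between Myh3 and Myh8, Myh8 and Myh10, Myh9 and Myh7, Myh1 and Myh6, and Myh6 and Myh2. They did not overlap between Myh10 and Myh9, Myh7 and Myh11, Myh11 and Myh1, or Myh2 and Myh4. Within 1 library, the deposited intervals of neighbours overlapped for Myh11 with Myh6 and Myh6 with Myh1 in replicate 1, and for Myh2 with Myh6 in replicate 2.

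**Figure D1:**
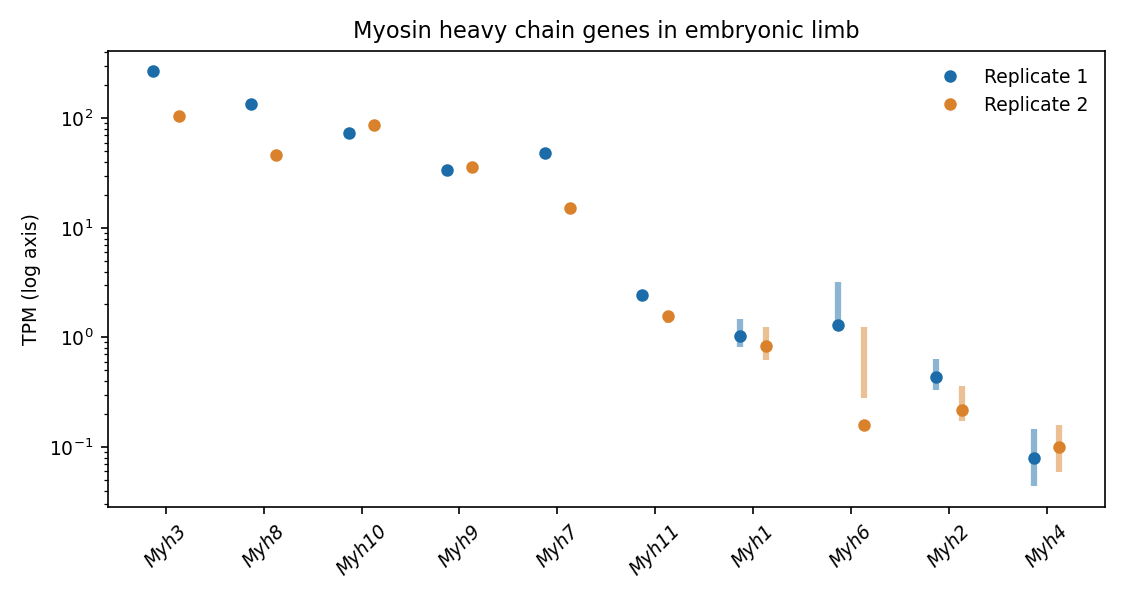
TPM of the 10 myosin heavy chain genes on a log axis, ordered by mean. Points are the deposited TPM of replicate 1 (blue) and replicate 2 (orange), and bars are the deposited intervals, hidden behind the points where narrow. Myh3 reached 267.8 TPM in replicate 1 and 104.9 in replicate 2, while Myh4 had 0.08 and 0.10 TPM.

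Myh3 encodes the embryonic chain of skeletal muscle. It had 267.8 TPM in replicate 1 and 104.9 in replicate 2 (186 ± 115 TPM, SD, n = 2), from 35348 and 16905 expected counts. Replicate 1 was 2.55-fold higher (folds between libraries are of TPM + 0.1), and the deposited intervals of 258.2 to 263.7 TPM and 101.1 to 104.2 TPM did not overlap. In bulk RNA, fewer muscle cells and less RNA per muscle cell cannot be told apart. In each library the TPM of Myh3 lay above its own interval, which was set around a posterior mean of 260.97 TPM in replicate 1 and 102.67 in replicate 2. Myh3 ranked 573rd among mouse genes in replicate 1 and 1552nd in replicate 2.

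Myh8, the neonatal or perinatal chain, had 135.5 TPM in replicate 1 and 45.97 in replicate 2 (90.7 ± 63.3 TPM, SD, n = 2). It was 2.94-fold higher in replicate 1, with intervals of 130.2 to 134.1 TPM and 44.07 to 46.12 TPM. The spread between pools was wide for both genes, while their ratio moved less: Myh3 over Myh8 was 0.98 on the log2 scale in replicate 1 and 1.19 in replicate 2.

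Myh3 lies at chr11:67078300-67102291 and Myh8 at chr11:67277124-67308634, both on the plus strand of mm10 (GRCm38). Between them on the same strand stand Myh2 (chr11:67171027-67197517), Myh1 (chr11:67200052-67224575) and Myh4 (chr11:67238029-67260446), the adult fast genes. The 5 neighbours therefore include the most and the least abundant members. Their promoters are shown for the 2 developmental genes and, because they hold the same motif match as Myh8, for Myh1 and Myh4. The bases are the 250 before the RefSeq start (GRCm38.p6), read from the gene's own strand. These starts are not the GENCODE gene starts for Myh1 and Myh4. Capitals mark matches on either strand to TATAAA, to the E-box CAGCTG, to the MEF2 motif and to the CArG box.
Myh3, chr11:67078050-67078299, plus strand: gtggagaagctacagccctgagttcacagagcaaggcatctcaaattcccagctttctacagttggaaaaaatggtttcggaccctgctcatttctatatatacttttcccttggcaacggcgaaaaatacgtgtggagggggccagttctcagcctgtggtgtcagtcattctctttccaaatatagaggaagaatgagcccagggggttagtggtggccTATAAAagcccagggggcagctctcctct
Myh8, chr11:67276874-67277123, plus strand: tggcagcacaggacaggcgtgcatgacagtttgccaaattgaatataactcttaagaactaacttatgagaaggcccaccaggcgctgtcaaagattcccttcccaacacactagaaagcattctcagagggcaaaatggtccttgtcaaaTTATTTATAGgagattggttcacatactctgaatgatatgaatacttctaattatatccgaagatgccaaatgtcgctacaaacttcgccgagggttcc
Myh1, chr11:67199852-67200101, plus strand: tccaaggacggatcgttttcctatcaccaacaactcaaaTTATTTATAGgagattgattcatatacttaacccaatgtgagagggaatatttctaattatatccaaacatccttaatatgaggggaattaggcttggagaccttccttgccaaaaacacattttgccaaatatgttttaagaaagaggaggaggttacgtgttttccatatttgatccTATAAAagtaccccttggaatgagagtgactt
Myh4, chr11:67237562-67237811, plus strand: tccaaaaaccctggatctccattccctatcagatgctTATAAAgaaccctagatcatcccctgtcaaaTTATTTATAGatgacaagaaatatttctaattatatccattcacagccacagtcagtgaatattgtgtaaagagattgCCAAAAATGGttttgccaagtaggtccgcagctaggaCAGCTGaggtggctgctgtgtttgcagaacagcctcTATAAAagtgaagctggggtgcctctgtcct

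The Myh3 promoter held TATAAA 29 to 24 bases before the start and no match to the other 3 motifs. The Myh8 promoter held a MEF2 match 99 to 90 bases before the start, which contains a reverse-strand TATAAA. The same 10 bases, ttatttatag, formed the MEF2 match of Myh1 (211 to 202 bases before the start) and of Myh4 (182 to 173 bases before). Each of these also overlapped a reverse-strand TATAAA. Myh1 held a further TATAAA 32 to 27 bases before the start. Myh4 held a further TATAAA 31 to 26 bases before the start, another 213 to 208 bases before, a CArG match 104 to 95 bases before and CAGCTG 67 to 62 bases before. The 3 genes with this match spanned a wide range of levels, with 135.5 and 45.97 TPM for Myh8 and 0.08 and 0.10 TPM for Myh4 in replicates 1 and 2.

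A promoter entry was found for 9 of 10 members and not for Myh11. With 50 bases past the start included, 7 of the 9 held TATAAA, 3 the MEF2 motif, 2 CAGCTG and 1 the CArG box. Among all 32851 promoters of that length, the shares were 13.6% for TATAAA, 3.19% for MEF2, 16.3% for CAGCTG and 1.63% for CArG. These counts take matches on either strand. The TATAAA matches of Myh6 and Myh2 lay past the start, and those of Myh8 and Myh9 were on the reverse strand.

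Transcript tables split Myh3 into 3 forms that encode 1 coding sequence of 5820 nt and differ outside it. Myh3-202 made up 63.0% of the gene's TPM in replicate 1 and 51.8% in replicate 2, and Myh3-201 made up 28.1% and 48.1%. Myh3-203 had 8.88% in replicate 1 and 0.0763% in replicate 2. These shares were poorly fixed by the reads, since the interval of Myh3-201 ran over 4.36 to 100 TPM in replicate 1 and 0.00145 to 48.9 TPM in replicate 2. Myh8 came almost wholly from Myh8-201, with 98.4% in each library.

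Myh7 encodes the slow chain of skeletal muscle, which is also the beta chain of heart ventricle. It had 48.41 TPM in replicate 1 and 15.11 in replicate 2 (31.8 ± 23.5 TPM, SD, n = 2), a 3.19-fold difference. Its intervals were 46.2 to 49.0 TPM and 14.4 to 16.2 TPM, and Myh7-201 carried 99.2% and 98.5% of the gene. Myh8 exceeded Myh7 by a similar factor in both pools, 1.48 on the log2 scale in replicate 1 and 1.60 in replicate 2. Myh3 over Myh7 was 2.47 and 2.79.

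Myh6, the alpha chain of heart, was close to the bottom of the family. It had 1.31 TPM in replicate 1 and 0.16 in replicate 2, from 125.8 and 26.5 expected counts. The 2 genes lie beside each other on the minus strand of chromosome 14, Myh7 at chr14:54970684-54994626 and Myh6 at chr14:54941921-54966927. Their coding sequences were identical at 91.8% of aligned bases, more than any other pair of members. The longest run they share is 245 nt, and it is shown because reads that fall wholly inside it match both genes. It lies in exons 32 and 33 of Myh7-201 (chr14:54974947-54975347) and exons 30 and 31 of Myh6-201 (chr14:54948327-54948725), minus strand.
Shared run of Myh7 and Myh6: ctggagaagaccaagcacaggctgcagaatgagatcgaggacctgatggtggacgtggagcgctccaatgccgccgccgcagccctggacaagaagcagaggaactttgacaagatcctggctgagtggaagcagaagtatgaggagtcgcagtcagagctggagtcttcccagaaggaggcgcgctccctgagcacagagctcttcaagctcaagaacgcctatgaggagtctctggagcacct

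The gene-level value of Myh6 is uncertain. Of the 100-nt windows of Myh6-201, 11.4% occur in transcripts of other genes, all of them in Myh7. For Myh7-201 the share in other genes was 14.1%. The part of shared sequence in the uncertainty was not tested. In replicate 2 the gene TPM of 0.16 lay below the gene interval of 0.283 to 1.24 TPM, and in replicate 1 that interval was 1.31 to 3.19 TPM. The intervals of the full-length Myh6-201 alone were narrower, 0.694 to 1.04 TPM in replicate 1 and 0.0964 to 0.227 in replicate 2. In replicate 1 the full-length Myh6-201 held 97.6% of the gene's counts but 70.8% of its TPM, since short forms with 1.34 counts or fewer have a high TPM per read. Myh7 over Myh6 was 5.10 on the log2 scale in replicate 1 and 5.87 in replicate 2.

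Markers of heart muscle were looked at beside these genes. Of the 10 listed, 5 had a mean TPM of 1 or more. Of these, 3 (Sln, Myl4 and Tnnt2) were over 2-fold higher in replicate 1, against 2.55% of 15571 genes with that mean. Heart genes of the list were partly detected. Tnni3, the troponin I of heart, had 5.06 TPM in replicate 1 and 4.67 in replicate 2, and Myl7, the atrial regulatory light chain, had 5.20 and 3.06 TPM. Nppa, an atrial hormone, had 0.13 TPM in replicate 1 and 0.10 in replicate 2. The heart regulators Nkx2-5 (0.06 and 0.03 TPM) and Tbx20 (0.02 and 0.01 TPM) were lower. Their part in the values of Myh6 and Myh7 was not tested. Sln, a regulator of the calcium pump, had 487.7 and 153.4 TPM, Myl4, the atrial and embryonic light chain, 275.6 and 108.9 TPM, and Tnnt2, a troponin of heart and embryonic skeletal muscle, 191.3 and 71.5 TPM. Sln, Myl4 and Tnnt2 are also known in developing skeletal muscle. The list summed to 965 TPM in replicate 1 and 342 in replicate 2.

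The adult fast genes were barely detected. Myh1 (type 2X) had 1.04 TPM in replicate 1 and 0.83 in replicate 2, from 121 and 102 expected counts. Myh2 (type 2A) had 0.44 and 0.22 TPM from 53.4 and 36.2 counts. Myh4 (type 2B), the main chain of fast adult mouse muscle, had 0.08 and 0.10 TPM from 10.4 and 15.4 counts, above the floor of 3 counts in both libraries. Together they reached 1.56 TPM in replicate 1 and 1.15 in replicate 2. Myh8 exceeded their sum by 6.35 on the log2 scale in replicate 1 and by 5.20 in replicate 2, so this ratio moved more between pools than that of Myh3 to Myh8.

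The adult fast genes also share sequence with their neighbours. Myh1 and Myh2 coding sequences were identical at 91.1% of aligned bases, Myh1 and Myh4 at 90.3%, and Myh8 and Myh1 at 89.4%. Of 100-nt windows, 14.9% of Myh1-202, 11.3% of Myh2-201 and 3.92% of Myh4-202 occur in other genes, against 1.15% of Myh3-202 and 6.61% of Myh8-201. Much of this sharing was with genes that were themselves low: Myh1 shared 454 windows with Myh2 and 319 with the antisense gene Myhas. With the abundant Myh8, Myh1 shared 159 windows, Myh2 204 and Myh4 87. Myh3 shared windows with Myh13 alone. How far reads of more abundant neighbours entered the values of the adult genes was not tested. Full-length forms were likewise unsettled: Myh1-201 held 51.0% of Myh1 TPM in replicate 1 and 0 in replicate 2, where Myh1-202 held 74.4%.

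**Figure D2:**
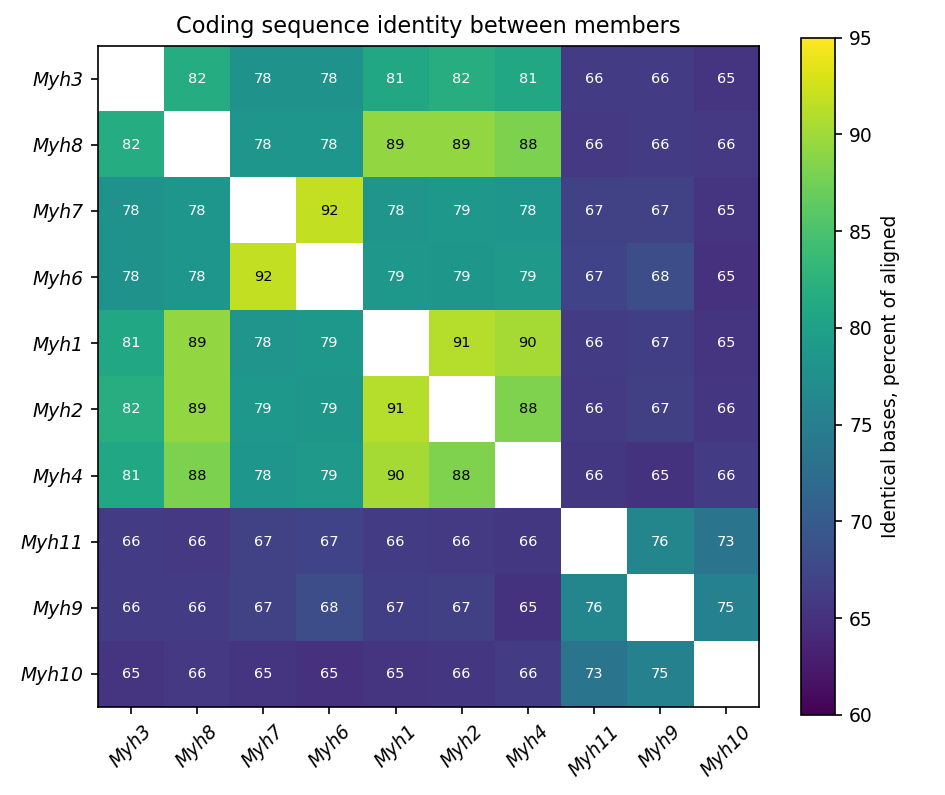
Percent of aligned coding bases that are identical, for each pair of members (main coding transcript of each). The pairs fall into blocks: Myh1, Myh2, Myh4 and Myh8 at 88 to 91%, Myh6 with Myh7 at 92%, and Myh9, Myh10 and Myh11 at 73 to 76%.

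Myh11, the smooth muscle chain (chr16:14194535-14291372, minus strand), had 2.43 TPM in replicate 1 and 1.56 in replicate 2 (2.00 ± 0.615 TPM, SD, n = 2), from 354 and 278 counts. Replicate 1 was 1.52-fold higher, with intervals of 2.13 to 2.63 TPM and 1.36 to 1.72 TPM. Of its 100-nt windows none occur in another gene, unlike those of the other 9 members. Smooth muscle markers lay on both sides of this level. Cnn1, calponin, had 2.49 TPM in replicate 1 and 1.75 in replicate 2, Myocd, the smooth muscle coactivator, 0.86 and 0.27 TPM, and Lmod1, a leiomodin, 0.83 and 0.38 TPM. Acta2, smooth muscle actin, had 301.4 and 198.6 TPM, Smtn, smoothelin, 115.6 and 67.4 TPM, and Tagln, a calponin relative, 22.5 and 17.8 TPM. Of the 10 markers, 8 had a mean TPM of 1 or more. Synpo2, an actin-bundling protein, was the 1 of these 8 over 2-fold higher in replicate 1, against 2.55% of 15571 genes with that mean. The 8 markers had a median log2 difference of 0.47. Several are also used in embryonic striated muscle or mesenchyme.

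The 2 nonmuscle members, Myh10 and Myh9, were within 1.18-fold between the pools. Myh10, nonmuscle heavy chain IIB (chr11:68691559-68816632, plus strand), had 74.04 TPM in replicate 1 and 87.45 in replicate 2 (80.7 ± 9.48 TPM, SD, n = 2). Replicate 2 was 1.18-fold higher, and the intervals of 70.8 to 76.6 TPM and 84.2 to 89.7 TPM did not overlap. Myh9, nonmuscle heavy chain IIA (chr15:77760587-77842175, minus strand), had 33.74 TPM in replicate 1 and 36.29 in replicate 2 (35.0 ± 1.80 TPM, SD, n = 2). Its intervals, 32.1 to 34.7 TPM and 34.7 to 37.0 TPM, overlapped at their edge. Myh9 over Myh10 was -1.13 on the log2 scale in replicate 1 and -1.27 in replicate 2. The summed nonmuscle genes exceeded Myh11 by 5.41 and 6.22 on the log2 scale.

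Myh10 has 10 annotated transcripts in the tables. Myh10-203, a 41-exon coding form, made up 58.0% of the gene's TPM in replicate 1 and 56.6% in replicate 2, with 42.97 and 49.47 TPM. Myh10-202, also a coding form of 41 exons, made up 0.932% and 1.36%. Myh10-206, a 2-exon noncoding transcript of 1811 nt, made up 32.2% and 35.1%. Of its 1811 nt, 1618 lie in the last exon of Myh10-203, so it is short and shares most of its sequence. By expected counts, not divided by length, Myh10-203 held 84.5% in replicate 1 and 83.2% in replicate 2.

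Myh10-201 differs from Myh10-203 by 2 cassette exons, of 10 and 21 codons, known as inserts B1 and B2 of the neuronal forms. They are shown because they set Myh10-201 apart, inside its coding region, from Myh10-203, the most abundant form. Exon 6 spans chr11:68745935-68745964 and exon 17 spans chr11:68775365-68775427, plus strand, mm10, and capitals mark the whole exon.
Exon 6 of Myh10-201: CAGGAATCGCCTAAGCCCGTGAAACCCCAG
Exon 17 of Myh10-201: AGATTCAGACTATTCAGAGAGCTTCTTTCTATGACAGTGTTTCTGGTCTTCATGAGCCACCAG

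Myh10-201 had 0 TPM in both libraries, with an upper interval bound of 0.566 TPM in replicate 1 and 0.488 in replicate 2. Exons of Myh10-203 hold 98.8% of its bases, so few reads could separate the forms, and the interval bound is the limit of detection here. Nerve markers were low in these limbs, with Stmn2, a growth-cone protein, at 9.86 and 9.81 TPM and Nefl, a neurofilament, at 7.69 and 11.5 TPM. None of the 6 was over 2-fold higher in replicate 1, against 2.55% of genes, or in replicate 2, against 1.12%. Their median log2 difference was -0.12. Any link of these markers to Myh10-201 was not tested. For Myh9, Myh9-201 made up 85.2% of TPM in replicate 1 and 88.4% in replicate 2.

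**Figure D3:**
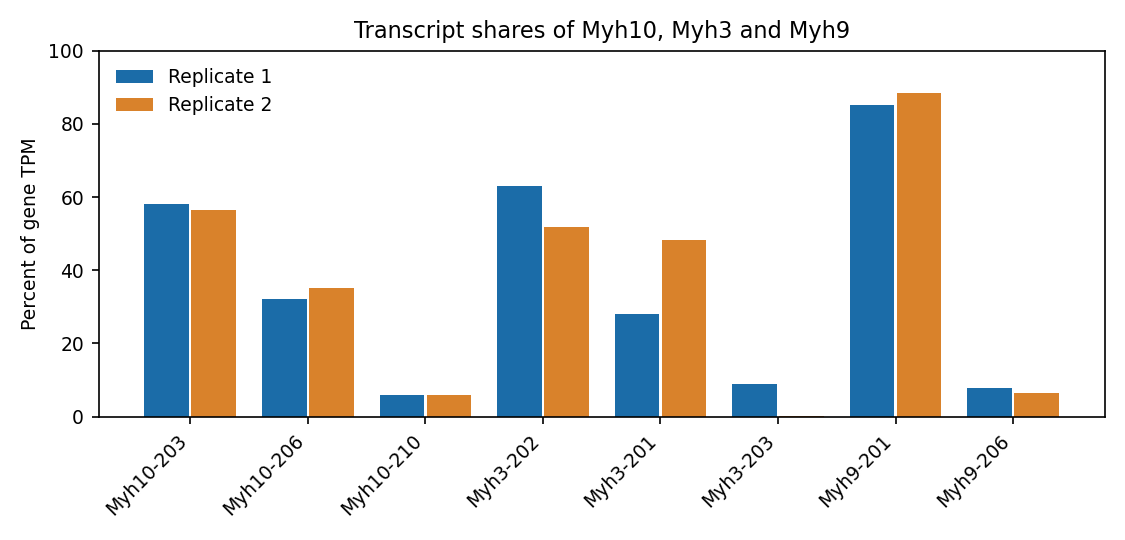
Percent of gene TPM from each transcript of Myh10, Myh3 and Myh9 that reached 5% in a library (replicate 1 blue, replicate 2 orange). Myh10-203 (58.0% and 56.6%) and Myh10-206 (32.2% and 35.1%) were alike in the libraries, while Myh3-201 was 28.1% and 48.1%.

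The share of each group in the family differed between pools. Sarcomeric genes held 80.5% of the summed TPM in replicate 1 and 57.2% in replicate 2, and nonmuscle genes held 19.1% and 42.3%. In TPM, the sarcomeric sum was 454.5 in replicate 1 and 167.3 in replicate 2 (2.72-fold), and the nonmuscle sum was 107.8 and 123.7. That nonmuscle sum includes the noncoding Myh10-206, with 23.87 TPM in replicate 1 and 30.73 in replicate 2. Within the sarcomeric sum, the composition was close in both pools: Myh3 held 58.9% and 62.7%, Myh8 29.8% and 27.5%, and Myh7 10.7% and 9.03%.

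**Figure D4:**
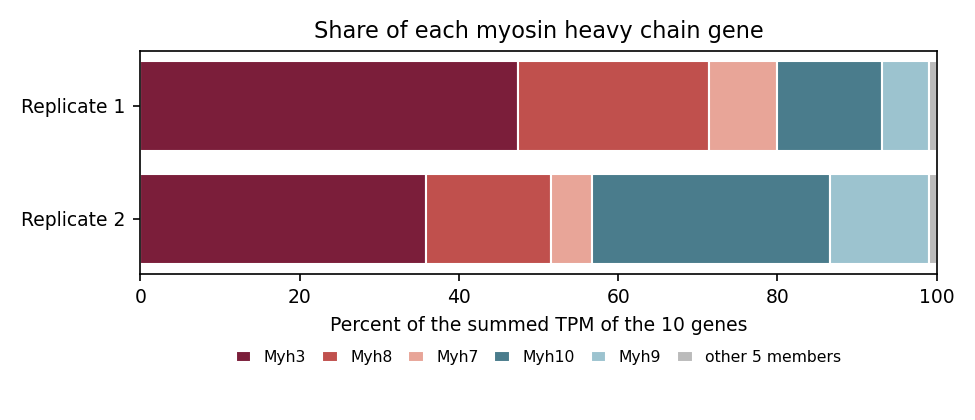
Percent of the summed TPM of the 10 genes from each gene, one bar per library. The red shades are sarcomeric genes and the blue shades nonmuscle genes. Myh10 and Myh9 take 13.1% and 5.97% in replicate 1 and 29.9% and 12.4% in replicate 2.

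The members were set against all genes whose mean TPM was 1 or more, a filter that 6 members passed. Over 2-fold higher in replicate 1 were 3 of these 6 members (Myh3, Myh7 and Myh8), against 2.55% of 15571 genes. None of the 6 was over 2-fold higher in replicate 2, against 1.12% of genes. The interval of replicate 1 lay wholly above that of replicate 2 for 4 members (Myh3, Myh7, Myh8 and Myh11), against 13.6% of genes. The reverse held for 1 member, Myh10, against 9.63% of genes. The median log2 difference, replicate 1 over replicate 2, was 0.98 over the 6 members and 0.02 over all 15571 genes. A larger log2 difference than that of Myh3 was found in 1.54% of genes, of Myh8 in 1.15% and of Myh7 in 0.963%.

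Most skeletal muscle markers moved with the sarcomeric genes. Of 9 markers, 7 were over 2-fold higher in replicate 1, against 2.55% of genes, and none in replicate 2, against 1.12%. The 9 had a median of 1.64 on the log2 scale and summed to 5126.5 TPM in replicate 1 and 1506.4 in replicate 2. Acta1, skeletal actin, had 2862 and 779 TPM, Tnnt1, slow troponin T, 456.5 and 188.4 TPM, and Ckm, muscle creatine kinase, 528.9 and 88.0 TPM. Tnnt3 (fast troponin T), Actn2 (Z-disc actinin), Des (desmin) and Mymk (a myoblast fusion protein) were 3.46, 3.20, 3.12 and 2.22-fold higher in replicate 1. Myog and Myod1 did not pass 2-fold, being 1.99 and 1.63-fold higher in replicate 1. The part of these values in the difference of the myosin genes was not tested.

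Partners of the sarcomeric chains differed in the same direction. Of 17 thick filament proteins and myosin chaperones, 14 passed the filter. Of these, 9 were over 2-fold higher in replicate 1, against 2.55% of genes, and none in replicate 2, against 1.12%. Ttn, titin, had 190.4 TPM in replicate 1 and 82.8 in replicate 2, and Mybpc1, slow myosin-binding protein C, 195.6 and 57.9 TPM. Unc45b, the myosin chaperone of striated muscle, had 30.3 and 12.9 TPM. The general chaperone Hsp90aa1, which serves every cell, had 535.7 and 575.0 TPM. Trim54, Trim55, Myom1 and Myom2, proteins of the sarcomere, were 2.01 to 2.88-fold higher in replicate 1.

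Light chains ranged from near equal to far higher in replicate 1. Of 21 light chains and regulators, 20 passed the filter. Of these, 6 were over 2-fold higher in replicate 1, against 2.55% of genes, and none in replicate 2, against 1.12%. The fast skeletal light chains Myl1 (1157 and 407.5 TPM) and Mylpf (971.8 and 330.0 TPM) were 2.84 and 2.94-fold higher in replicate 1. Myl3 and Myl2, light chains of slow muscle and ventricle, were 7.69 and 4.28-fold higher, beyond the 3.19-fold of Myh7, and the difference was not tested. Myl6, the light chain of smooth and nonmuscle myosin, had 957.2 and 879.1 TPM.

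Factors known to set fibre type were closer to equal. Their median log2 difference was 0.16. None of 14 was over 2-fold higher in replicate 1, against 2.55% of genes, or in replicate 2, against 1.12%. In so short a list, a count of 0 is near those shares. The interval of replicate 1 lay wholly above that of replicate 2 for 5 of the 14, against 13.6% of genes. The reverse held for 1, against 9.63%. The widest gaps were those of Vgll2, a cofactor of muscle genes, with 34.3 TPM in replicate 1 and 17.9 in replicate 2, and of Tead4, with 7.52 and 4.01 TPM. Nfix, known to drive the fetal programme of muscle and also active in other tissues, had 72.9 TPM in replicate 1 and 81.8 in replicate 2. Mef2c and Mef2a, which bind the MEF2 motif, had 64.1 and 47.0 TPM and 42.2 and 39.3 TPM. Connective tissue and cartilage markers, led by Col1a1, Col3a1 and Col1a2, had a median log2 of 0.04. Markers of endothelium and blood, led by Hbb-bs, Hba-a1 and Lyz2, had 0.16. Toward replicate 1 these 2 lists reached log2 differences of at most 0.30 and 0.34, against 0.93 for the factors. None of 8 in either list was over 2-fold higher in replicate 1, against 2.55% of genes, or in replicate 2, against 1.12%. The interval of replicate 1 lay wholly above that of replicate 2 for 4 of 8 in each list, against 13.6% of genes. The reverse held for 2 and 0, against 9.63%. Col1a1, the main collagen of bone and dermis, had 4931 TPM in replicate 1 and 4017 in replicate 2, and Hbb-bs, an adult globin, 6903 and 6890 TPM.

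**Figure D5:**
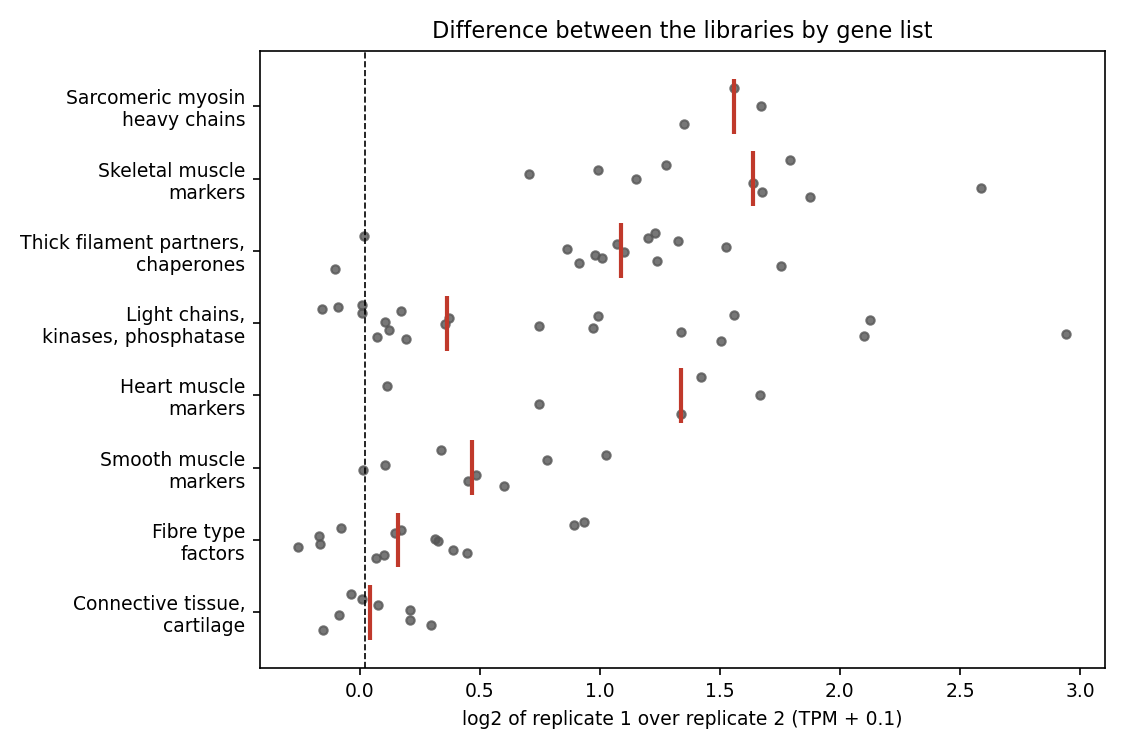
Log2 of replicate 1 over replicate 2 (TPM + 0.1) for genes whose mean TPM was 1 or more, by list. Each point is a gene, each red line the list's median and the dashed line the median of all genes, 0.02. The 3 sarcomeric heavy chains that passed the filter lie at 1.35 to 1.67, near the skeletal muscle median of 1.64.

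Other genes of the family that are not members were low. Myh14, nonmuscle heavy chain IIC, had 5.38 TPM in replicate 1 and 4.36 in replicate 2, Myh7b 4.13 and 2.03 TPM and Myh15 0.24 and 0.35 TPM. Of these and Myh13, 2 of 4 passed the filter. Neither was over 2-fold higher in replicate 1, against 2.55% of genes, or in replicate 2, against 1.12%. Myh7b was 1.99-fold higher in replicate 1.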

How the data were processed

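For each of the 2 libraries the authors deposited a gene table and a transcript table. Reads were quantified by the authors against mm10 with GENCODE M4, as the labels and the deposited records state. Not given in the sources used here are the strand setting, the level of the intervals, the aligner and the counting program. Columns of expected counts, TPM and posterior mean TPM, and of FPKM per gene, are named per the file headers. The deposited interval bounds of TPM were treated as a signal that is never negative. They cover the assignment of reads, not the difference between pools. A deposited percent column holds the share of each transcript.

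Member identifiers, transcript names, exons and coordinates came from GENCODE M21 (GRCm38), and symbols of other genes from a table of gene names. Shares, sums and ratios were computed from TPM, ratios and library differences as log2 with 0.1 TPM added. Genes whose mean TPM was 1 or more served as background. Coding sequences were aligned with Biopython 1.88, and 100-nt windows of each main transcript were looked up in all M21 transcripts on both strands. Promoters came from RefSeq (GRCm38.p6). TMM factors came from edgeR 4.0.16 in R 4.3.3 on the expected counts, and other steps used Python 3.11.15, numpy 2.4.6, pandas 2.3.3 and matplotlib 3.10.9. The script was checked on simulated data with known fold changes, which gives no background for these libraries.

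The members and gene lists were chosen with earlier results of these data known. Named are all 10 members, the 3 highest genes of each list by mean TPM, list genes over 2-fold apart whose mean TPM was 10 or more, and transcripts with a mean share of 10% or more in members whose mean TPM was 1 or more. Tnni3, Myl7, Nppa, Nkx2-5, Tbx20, Synpo2, Cnn1, Myocd, Lmod1, Vgll2, Tead4, Myog, Myod1, transcripts below that share and transcripts of Myh1 and Myh6 were named after their values were seen. Replicate numbers come from the labels. Alternatives covered the unit, the pseudocount, the scaling, the filter and leaving out each library. A gene that the naming rule selects is not reported here. Proteins were not analysed here.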

Additional observations from a re-analysis of the deposited data

How the results depend on the processing

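Of 261 recomputed values, 23 moved and none reversed. Reversal meant a change of sign, which levels, shares and counts, never negative, could not show. Only log2 ratios and log2 differences could reverse. A level, share or ratio moved if it changed by more than the SD between libraries, a difference between libraries if by more than a width taken from the deposited intervals, and a count if by over 1.5 times. Leaving out 1 of 2 libraries can never exceed the SD, so those 38 values for each library say nothing about stability: the family sum was 292.6 TPM without replicate 1 and 564.7 without replicate 2, and Myh7 15.1 and 48.4 TPM. Values that involve Myh6 depended on the choices. Its log2 difference between libraries of 2.44 was 0.99 with a pseudocount of 1 TPM and 1.49 with posterior mean TPM, and the log2 of 5.49 for Myh7 over Myh6 became 4.11 with a pseudocount of 1 TPM, 6.12 with expected counts not divided by length and 4.30 with posterior mean TPM, and the cause was not tested. Counts not divided by length gave Myh9 over Myh10 a log2 of -0.86, against -1.20, and raised the share of Myh10-203 to 83.9% and of Myh9-201 to 95.7% while lowering Myh10-206 to 11.0%, as short transcripts weigh less. This share by counts was added after seeing the data. The posterior mean percent gave Myh10-203 54.6%, Myh7-201 96.6% and Myh8-201 98.3%, and counts gave Myh8-201 99.1%. With TMM-scaled counts, 1 of the other myosin heavy chain genes was over 2-fold higher in replicate 1, against 0. Over genes with any count, 5.41% were over 2-fold higher in replicate 1, and over genes whose mean TPM was 10 or more, 1.23%. No paired analysis was possible because the study has 1 group. With 2 pools an SD rests on 2 values. Both libraries started from 10 ng of RNA, and any amplification noise, which depth would not remove, was not measured.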

Other observations

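Noncoding genes lying among or beside the myosin genes, chosen by position after the values were seen, had few or no reads. The long noncoding 2310065F04Rik, between Myh3 and Myh2, had 0.14 TPM in replicate 1 and 0.10 in replicate 2, from 8 and 7 counts. The antisense gene Myhas, which starts between Myh1 and Myh4 and runs into Myh1 on the opposite strand, had 0.12 TPM in replicate 1 and 0 in replicate 2. Mhrt, the antisense RNA of the Myh6 and Myh7 locus known from mouse heart, had 0.20 and 0.08 TPM. The strand setting of the counting is not given, and without strand, reads of these genes and of their sense partners cannot be told apart. The rows of the intronic microRNA genes Mir208a and Mir208b, within Myh6 and Myh7, were at 0 in both libraries, and RNA under 200 nt was not kept.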
